A study of Caenorhabditis elegans with 2 samples.

Results

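Strong distal intergenic regions are stretches of the Caenorhabditis elegans genome that gave high signal in chromatin immunoprecipitation and sequencing (ChIP-seq) of TTX-3 and that lie away from the starts and bodies of protein-coding genes. They were chosen by signal and position. Of the 30000 regions in the list made from both replicates together, the 3000 of highest signal were taken. A region was kept when it was nuclear and its summit lay more than 100 bp from any tRNA, snoRNA or snRNA gene. The summit also had to lie outside every protein-coding gene body and outside the window from 1000 bp upstream to 300 bp downstream of every protein-coding 5′ end. This left 542 regions, 18.1% of the 3000; the others were 1378 promoter regions, 749 gene body regions, 319 regions at small RNA genes and 12 mitochondrial regions. Signal is the strength that the authors' peak caller gave each region, and it has no stated scale between lists. The 542 regions had signals from 43.4 to 375, with a median of 50.5 and quartiles of 46.2 and 58.5. The values around the threshold were continuous: rank 3000 had 43.3785 and rank 3001 had 43.3774. In 539 of the 542 the deposited region was 450 bp wide.

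The embryos were hermaphrodites of strain OP68, which carries unc-119(ed3) III and the insertion wgIs68, a transgene for TTX-3 with a C-terminal GFP-FLAG tag. They were late embryos, taken 4 hours after synchronization by egg bleaching, and sheared by sonication before an antibody against GFP was used. There was 1 group of 2 biological replicates, which shared a control, and no second condition. Whole organisms were used, so the few cells that express TTX-3 were mixed with all others, and no read counts are given, so depth is unknown. Positions are given on ce11, which has the coordinates of WBcel235.

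TTX-3 belongs to the LIM homeodomain family and gives the AIY interneurons, which process temperature, their identity; AIA and NSM neurons need it too. Homeodomains recognise short AT-rich words with a TAAT core. C. elegans genes are closely packed, and regulatory sequence beyond promoters includes enhancers between genes, noncoding RNA genes and, on X, the recruitment sites from which the dosage compensation complex spreads to lower X transcription in hermaphrodites. Those recruitment sites carry a GC-rich motif called MEX.

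The strongest of these regions are shown first, because they show what the strongest summits look like. Each line runs from 50 bp before to 50 bp after the summit, read from the plus strand of the RefSeq WBcel235 genome. Capitals mark every match, on either strand, to the 11 words searched and to 2 added ones. The 11 were the homeodomain core TAATTA and its variant TAATTG, the B box part GTTCGA from the internal promoter of tRNA genes, a CpG word GCGCAC, the GA repeat GAGAGA, the E box CACGTG, the GATA factor site TTATCA, the AP-1 site TGACTCA, the GC box GGGCGG, an octamer CTGCGTCT and a run of T, TTTTTTTT. The added words were CGCGCAGG and its neighbour GCGCAGGG.
alh-3 to hrg-5, rank 22, chrIV:11026147-11026247: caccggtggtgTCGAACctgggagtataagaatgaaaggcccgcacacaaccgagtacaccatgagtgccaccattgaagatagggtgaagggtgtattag
aagr-1 to D2096.7, rank 119, chrIV:8375551-8375651: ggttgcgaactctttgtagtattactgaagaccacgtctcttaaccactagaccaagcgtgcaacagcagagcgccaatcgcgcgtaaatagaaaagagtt
ztf-27 to T09F3.2, rank 129, chrII:10388208-10388308: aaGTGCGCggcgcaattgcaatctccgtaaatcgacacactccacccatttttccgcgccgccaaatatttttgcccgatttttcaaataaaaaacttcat
irld-55 to Y37A1B.7, rank 167, chrIV:14034013-14034113: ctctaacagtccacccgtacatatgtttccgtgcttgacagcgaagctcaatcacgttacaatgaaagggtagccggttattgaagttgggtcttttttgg
adm-2 to K02D3.1, rank 212, chrX:13700809-13700909: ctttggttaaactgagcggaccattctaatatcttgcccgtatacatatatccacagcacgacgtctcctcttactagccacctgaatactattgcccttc
nhr-204 to lgc-26, rank 224, chrV:265214-265314: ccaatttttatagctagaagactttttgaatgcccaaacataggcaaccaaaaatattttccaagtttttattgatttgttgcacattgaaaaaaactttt
ceh-58 to ztf-27, rank 232, chrII:10373906-10374006: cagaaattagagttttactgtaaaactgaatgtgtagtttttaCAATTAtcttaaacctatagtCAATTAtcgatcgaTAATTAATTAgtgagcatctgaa
Y15E3A.5 to nfki-1, rank 238, chrX:15347853-15347953: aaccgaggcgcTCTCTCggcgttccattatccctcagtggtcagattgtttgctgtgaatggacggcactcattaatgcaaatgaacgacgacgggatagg
The window between ceh-58 and ztf-27 held TAATTA and TAATTG. The windows of ranks 119, 167, 212 and 224 held none of the words.

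A second set is shown because its members share a word: the 9 regions with CGCGCAGG or GCGCAGGG within 50 bp of the summit, both part of the MEX motif. These 2 words were chosen after words at the members on X had been counted, so their share is a description. The first 8 are on X and the last is on III.
W04G3.11 to W02H3.3, rank 161, chrX:11094159-11094259: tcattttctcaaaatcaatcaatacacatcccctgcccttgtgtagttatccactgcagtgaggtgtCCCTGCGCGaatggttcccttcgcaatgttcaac
F20B6.9 to hpk-1, rank 201, chrX:4209232-4209332: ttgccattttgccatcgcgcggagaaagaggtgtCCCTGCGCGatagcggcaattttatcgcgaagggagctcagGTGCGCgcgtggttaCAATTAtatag
gtr-1 to F25E2.2, rank 225, chrX:806608-806708: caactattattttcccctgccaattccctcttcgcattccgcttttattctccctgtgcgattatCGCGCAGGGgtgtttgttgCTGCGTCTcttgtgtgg
WBGene00020828 to T26C11.4, rank 304, chrX:1837841-1837941: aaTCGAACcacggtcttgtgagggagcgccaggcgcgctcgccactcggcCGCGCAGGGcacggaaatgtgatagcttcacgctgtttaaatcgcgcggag
F22H10.2 to F22H10.11, rank 499, chrX:16682073-16682173: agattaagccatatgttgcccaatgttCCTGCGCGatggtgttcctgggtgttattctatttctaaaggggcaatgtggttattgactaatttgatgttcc
F31A3.3 to hlh-29, rank 906, chrX:17544480-17544580: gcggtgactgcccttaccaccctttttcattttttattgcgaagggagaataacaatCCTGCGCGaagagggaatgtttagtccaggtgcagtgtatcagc
col-185 to cdk-4, rank 940, chrX:13514487-13514587: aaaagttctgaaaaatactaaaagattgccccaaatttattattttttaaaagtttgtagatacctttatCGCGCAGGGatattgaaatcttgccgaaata
lgc-40 to T24D8.6, rank 1140, chrX:2364869-2364969: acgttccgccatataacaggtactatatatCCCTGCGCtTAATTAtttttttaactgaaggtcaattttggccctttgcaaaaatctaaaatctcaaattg
hmt-1 to sup-35, rank 1212, chrIII:11110892-11110992: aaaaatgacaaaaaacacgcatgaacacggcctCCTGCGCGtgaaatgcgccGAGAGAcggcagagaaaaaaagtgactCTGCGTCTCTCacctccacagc
A run of 9 bases, CGCGCAGGG on one strand or the other, stood in ranks 161, 201, 225, 304 and 940. Rank 499, rank 906 and rank 1212 held the first word alone and rank 1140 the second alone.

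The MEX words were more frequent at members on X than at members on autosomes or at weaker distal regions on X. Of the 119 members on X, 8 (6.72%, exact 95% interval 2.95 to 12.8) held one within 50 bp of the summit, against 1 of the 423 autosomal members (0.236%). None of the 866 weaker distal intergenic regions on X held one (exact 95% interval up to 0.425%), and 3 of 3082 did on autosomes. The weaker regions came from the 15000 of lowest signal in the pooled list under the same position rule, 3948 in all; those in between are called middle rank. Within 200 bp of the summit the words were in 12 of the 119 members on X (10.1%) and in 3 of the 423 on autosomes, against 1 of the 866 weaker regions on X and 12 of the 3082 on autosomes. Of 159 strong promoter regions on X, 2 held a word within 50 bp (1.26%, 0.153 to 4.47). Of 80 strong gene body regions on X, 2 did (2.5%, 0.304 to 8.74). Both intervals overlapped that of the members on X. Counted from the words, the X had 57 distal intergenic sites, of which 8 (14%, 6.26 to 25.8) lay within 50 bp of a summit among the 3000 strongest, against 1 of 125 sites on autosomes (0.800%, 0.0203 to 4.38). Most distal sites on X had no strong summit. All intervals are exact (Clopper-Pearson) at 95% and cover counting error only.

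The signals of the X regions with a MEX word were as follows. Between W04G3.11 and W02H3.3 the signal was 78.0 in replicate 1 and 88.5 in replicate 2. Upstream of F20B6.9 and next to hpk-1, which encodes a homeodomain-interacting protein kinase, it was 67.3 in replicate 1 and 78.1 in replicate 2. The replicates differed most between gtr-1 and F25E2.2, with 94.1 in replicate 1 and 40.9 in replicate 2. The region beside T26C11.4, whose summit lay inside the pseudogene T26C11.3, had 45.7 in replicate 1 and 69.2 in replicate 2. The others had 28.5 to 42.1 in replicate 1 and 32.8 to 51.1 in replicate 2. The weakest on X, beside lgc-40, which encodes a ligand-gated ion channel, had 28.4 in replicate 1 and 22.3 in replicate 2. The region on III had 42.0 in replicate 2 and no summit within 100 bp in replicate 1. At 200 bp the 12 regions also took in one upstream of sid-3, a kinase gene needed for import of silencing RNA (69.6 in replicate 1 and 34.8 in replicate 2). Its summit lay 4949 bp from sid-3 and 2439 bp from B0302.2 on the other side. Another lay 4804 bp upstream of xol-1, the switch gene of sex determination (29.1 in replicate 1 and 61.3 in replicate 2). All 12 had a summit in both replicate lists, against 78 of the 107 members on X without a word (72.9%, 63.4 to 81.0). Their median pooled signal was 88.2, against 51.6 for the other 107. These signals come from the ranking that chose the members. Presence in both lists also went with that ranking, at 69.6% of all members and 79.7% of members among the 1500 strongest regions. Neither contrast is therefore independent of the choice. The GC content of the 9 windows within 50 bp ran from 28.7% to 62.4%.

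**Figure D1:**
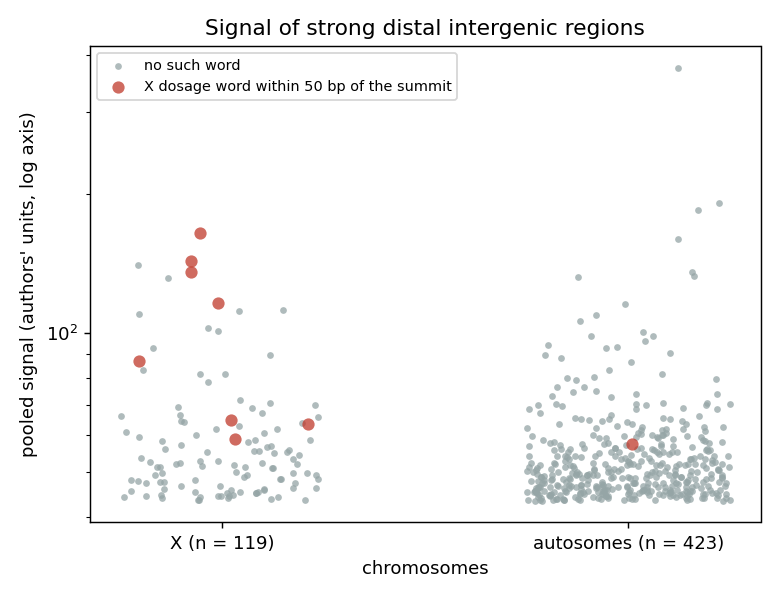
Pooled signal of each strong distal intergenic region (authors' units, log axis), on X (119 regions, left) and on autosomes (423, right); large points hold CGCGCAGG or GCGCAGGG within 50 bp of the summit. The 8 such regions on X lie between 59.0 and 165, and the single autosomal one is at 57.6.

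Regulatory words other than the MEX words were compared in the same windows. The homeodomain core TAATTA was in 40 of the 542 members (7.38%, 5.32 to 9.91) and in 275 of the 3948 weaker distal regions (6.97%, 6.19 to 7.80), and TAATTG in 9.59% of members and 9.75% of weaker regions, with overlapping intervals for both words. GAGAGA was in 76 members (14%, 11.2 to 17.2) against 4.86% of weaker regions, with 7.53% in distal regions of middle rank. It was in 10.1% of strong promoter regions (8.55 to 11.8) and 12.2% of strong small RNA regions (8.84 to 16.3), and both intervals overlapped that of members. It was in 6.54% of strong gene body regions (4.88 to 8.56). CTGCGTCT was in 24 members (4.43%, 2.86 to 6.52) and 31 weaker regions (0.785%), GCGCAC in 4.80% of members and 1.42% of weaker regions, and GGGCGG in 5.17% of members and 1.57% of weaker regions. Strong regions of other classes held these words too. CTGCGTCT was in 3.48% of strong promoter regions (2.58 to 4.59), 1.60% of strong gene body regions and 0.627% of strong small RNA regions. GCGCAC was in 11.1% of strong promoter regions, 2.80% of strong gene body regions and 6.58% of strong small RNA regions. GGGCGG was in 6.68% of strong promoter regions, 5.21% of strong gene body regions and 6.90% of strong small RNA regions. The GATA factor word TTATCA went the other way, with 6.09% of members (4.23 to 8.44) and 8.89% of weaker regions (8.02 to 9.82), and these intervals overlapped. GTTCGA, part of the internal promoter of tRNA genes, was in 2.77% of members and 2.96% of weaker regions. The longer tRNA promoter pattern, GGTTCGA followed by any 2 bases and CC, lay within 150 bp of 7 members (1.29%) and of 1.04% of weaker regions, against 49.5% of strong small RNA regions. The printed window of the strongest member, rank 22, held this longer pattern on the minus strand.

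Base composition moved with these words, and its part in them was not tested. The median GC content of the windows was 38.6% in members and 31.7% in weaker distal regions, with 33.7% at middle rank. It was 40.6% in strong promoter regions, 35.6% in strong gene body regions and 50.5% in strong small RNA regions. In windows of 35% to 45% GC, 173 members and 1019 weaker regions, GAGAGA was in 13.9% of members (9.10 to 19.9) and 7.85% of weaker regions (6.27 to 9.68), and the intervals overlapped. There CTGCGTCT was in 2.89% of members (0.945 to 6.62) and 1.67% of weaker regions (0.975 to 2.66), again with overlap; the intervals of GCGCAC (4.62% of members, 2.75% of weaker regions) and GGGCGG (4.05% of members, 2.26% of weaker regions) overlapped too. TAATTA was in 7.51% of members (4.06 to 12.5) and 4.71% of weaker regions (3.49 to 6.20) in this range, also with overlapping intervals. A MEX word was in 1 of the 35 members on X and 0 of the 201 weaker regions on X in this range. GAGAGA was not centred on the summits: in 50 bp steps from 200 bp upstream to 200 bp downstream it was in 6.46% to 9.59% of members, against 2.41% to 3.65% of weaker regions. MEX words were in no member beyond 150 bp on either side within that span.

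**Figure D2:**
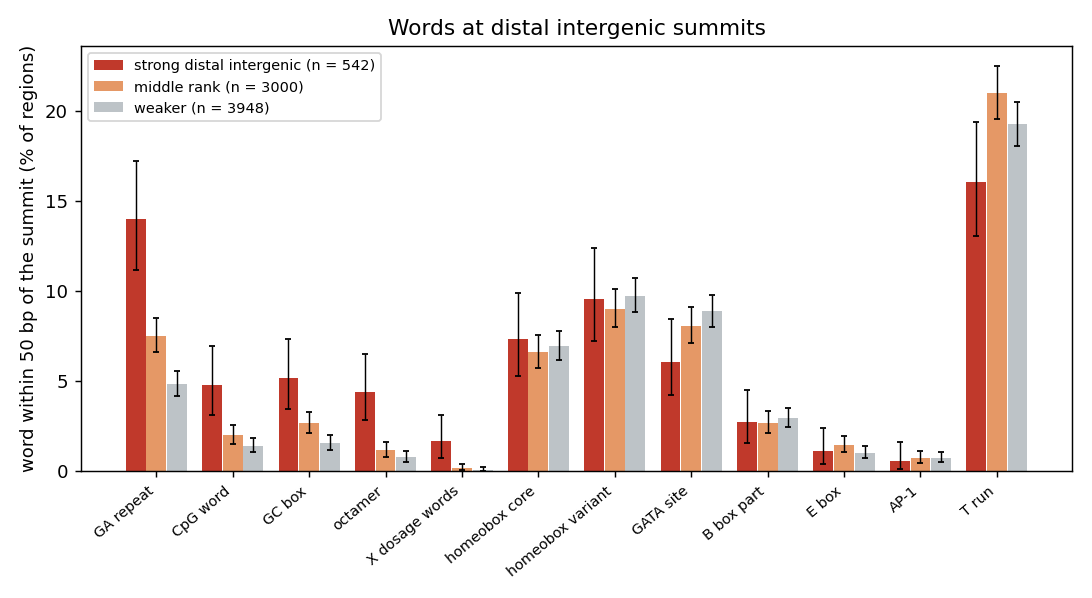
Share of regions with each word within 50 bp of the summit, for the 542 strong distal intergenic regions (left bar), 3000 of middle rank (centre) and 3948 weaker ones (right), with exact 95% intervals for counting error. The strong set stands above the weaker one at the GA repeat, GAGAGA (14% of strong and 4.86% of weaker regions), and level with it at the homeobox core, TAATTA (7.38% of strong and 6.97% of weaker regions); X dosage words are the MEX words.

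Windows marked as repeat were less common at these summits than at weaker distal regions. More than 50% of the window was marked as repeat in the reference genome for 204 members (37.6%, 33.5 to 41.9), against 45.3% of weaker distal regions. Among the other strong regions the share was 27.9% at promoters, 48.7% in gene bodies and 5.33% at small RNA genes. The central 31 bases occurred more than once in the genome for 21 members (3.87%, 2.41 to 5.86), an interval that includes the 4.51% of weaker regions. The most repeated was a region on III between Y75B8A.6 and Y75B8A.7, with 556 copies and signals of 26.6 in replicate 1 and 25.02 in replicate 2. The strong region of rank 224, between nhr-204 and lgc-26, had 4 copies, and 57.4% of its window was marked as repeat. No member held the central 31 bases of another, and 45 members overlapped another member.

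The strongest 20 members included 10 on X. The strongest of all, on IV between alh-3, an aldehyde dehydrogenase gene, and the heme-responsive gene hrg-5, had a signal of 191 in each replicate and stood apart from the rest. Its summit lay in the ncRNA gene F36H1.17 and 85 bp from the microRNA gene mir-51. The next, between aagr-1, an acid alpha-glucosidase relative, and D2096.7, had 85.0 in replicate 1 and 102 in replicate 2; it lies in an interval of 350 bp between the 3′ ends of both genes. Rank 129, just past the 3′ end of the zinc finger gene ztf-27, had 93.5 in replicate 1 and 91.4 in replicate 2. Rank 167, between irld-55 and Y37A1B.7, had 59.6 in replicate 1 and 99.7 in replicate 2, and its summit lay inside the microRNA gene mir-52. Beside adm-2, an ADAM metalloprotease gene, the signals were 67.4 in replicate 1 and 73.7 in replicate 2, and between the nuclear receptor gene nhr-204 and the ligand-gated channel gene lgc-26 they were 62.6 in replicate 1 and 72.7 in replicate 2. Between the homeobox gene ceh-58 and ztf-27 they were 62.8 in replicate 1 and 62.6 in replicate 2.

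Apart from these and the regions with MEX words, the 20 had pooled signals from 106 to 132. They lay between prhg-1 and the astacin protease gene nas-30, between Y15E3A.5 and nfki-1, between W03G9.9 and the neurotransmitter transporter gene snf-1, and between dot-1.4 and F55G7.5. Others lay between T22B2.5 and idpp-9, between mig-15, a kinase gene of the Nck-interacting family, and C39B10.3, and between Y41D4B.24 and bus-2. The region between cutl-22 and the calmodulin gene cmd-1 had 75.4 in replicate 1 and no summit within 100 bp in replicate 2, the only one of the 20 absent from a replicate list.

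How far the replicates shared these regions was described next. The pooled list was made from both replicates, so their presence there is not independent of the choice. A summit of both replicate lists lay within 100 bp of 377 members (69.6%, 65.5 to 73.4), where 22.4% of all 30000 pooled regions had that. It was 78.7% for strong promoter regions, 71.8% for strong gene body regions and 92.2% for strong small RNA regions, and 31.7% for distal regions of middle rank and 4.33% for weaker ones. Another 73 members had a summit in replicate 1 alone, 87 in replicate 2 alone and 5 in neither. Members had signals from 11.8 to 191 in replicate 1, with a median of 26.7 over 450 regions, and from 12.6 to 191 in replicate 2, with a median of 27.4 over 464. The Spearman correlation between replicates over the 377 was 0.0357, across regions that share the control and were chosen by pooled signal. It was 0.429 over 1085 strong promoter regions, 0.852 over 294 strong small RNA regions and -0.141 over 538 strong gene body regions. Distal regions of middle rank had -0.199 over 951, and weaker ones -0.0148 over 171. The low value was thus not particular to the members. The correlation was 0.375 over the 47 members that were in both replicate lists and in the authors' optimal list, the 700 regions that passed their irreproducible discovery rate filter. That list held 53 members (9.78%, 7.41 to 12.6), against 2.33% of all pooled regions, 25.8% of strong promoter regions and 7.34% of strong gene body regions; it holds the strongest pooled regions, so this repeats the choice.

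A choice made in a single replicate gives a view that the other replicate did not shape. The same rule applied to the replicate 1 list chose 587 distal intergenic regions, and 90 of them (15.3%, 12.5 to 18.5) had a summit within 100 bp among the 3000 strongest of replicate 2. The share was 29.6% for all 2979 nuclear regions chosen in that way, 33.0% for promoter regions, 14.7% for gene body regions and 78.3% for small RNA regions. With replicate 2 choosing, 87 of 547 distal regions (15.9%, 12.9 to 19.2) were found again. Recovery was highest at the strongest ranks: it was 28 of 35 (80.0%, 63.1 to 91.6) for distal regions among the 500 strongest of replicate 1, 19 of 85 (22.4%) for ranks 501 to 1000, and 5.56% to 8.46% beyond rank 1500. Among the 500 strongest, promoter regions were recovered in 84.1% (78.6 to 88.6), an interval that overlaps that of distal regions.

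**Figure D3:**
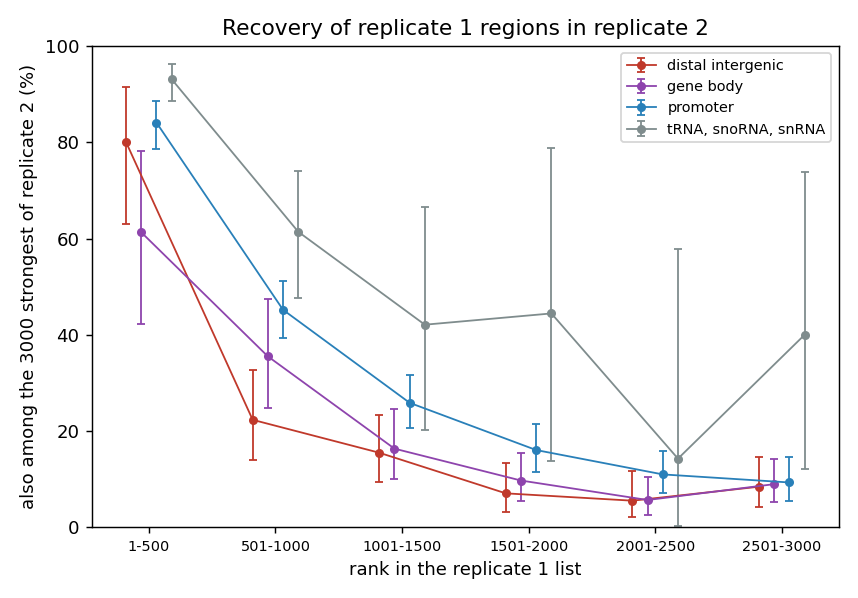
Share of regions chosen in replicate 1 with a summit within 100 bp among the 3000 strongest of replicate 2, by rank in replicate 1 and region class, with exact 95% intervals for counting error. For distal intergenic regions the share is 80.0% in the first 500 ranks and 22.4% in the next 500.

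Among the 377 members in both lists, those with the most unlike signals had pooled signals from 53.2 to 73.8, above the members' median of 50.5. Members with a summit in a single replicate list have no ratio and are not ranked here. Higher in replicate 1 were a second region between W03G9.9 and snf-1 (50.9 in replicate 1, 16.5 in replicate 2), one between rho-1, which encodes a small GTPase, and zip-7 (42.6 in replicate 1, 13.8 in replicate 2), and one between ZK899.6 and gap-2 (56.1 in replicate 1, 19.3 in replicate 2). Higher in replicate 2 were regions beside the hypoxia factor gene hif-1 (15.4 in replicate 1, 43.9 in replicate 2; in the optimal list), between Y39B6A.10 and Y39B6A.9 (13.8 in replicate 1, 37.2 in replicate 2) and between usp-5 and trak-1 (14.6 in replicate 1, 39.1 in replicate 2). In all, 59 of the 377 had deposited signals more than 2-fold apart between the replicates. Signal has no stated scale between lists, so these ratios compare the deposited values only.

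By chromosome, the members did not follow the space open to them. Distal intergenic sequence under the same rule made up 25 Mb, 24.9% of the genome. Chromosome III held 100 members (18.5%, 15.3 to 22.0) in 11.1% of that sequence and chromosome I held 94 (17.3%, 14.2 to 20.8) in 11.2%. Chromosome IV held 75 (13.8%, 11 to 17) in 20.01% and V held 74 (13.7%, 10.9 to 16.8) in 20.6%. The X held 119 (22.0%, 18.5 to 25.7) in 22.7%, and chromosome II 80 (14.8%, 11.9 to 18) in 14.3%, and both intervals include the share of sequence. Weaker distal regions leaned the same way on the autosomes, with 14% on III and 16.5% on V, but 20.4% on IV, where the members' interval lies below. The autosomal lean was shared by all strong nuclear regions, members included. These had 19.2% on I, 16.6% on II, 18.4% on III, 15.8% on IV and 14.4% on V, each inside the members' interval. On X they had 15.5%, below the members' interval. The X held 11.5% of strong promoter regions, 10.7% of strong gene body regions and 33.2% of strong small RNA regions. Among members on X, 18 of 119 (15.1%) were in the optimal list, against 35 of 423 on autosomes (8.27%); 5 of those 18 held a MEX word within 50 bp and 0 of the 35 did.

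**Figure D4:**
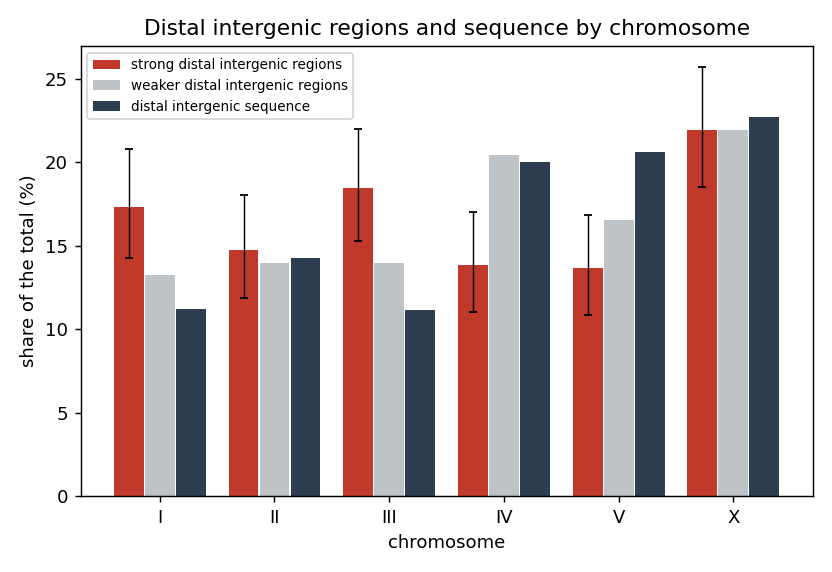
Share of the 542 strong distal intergenic regions (left bar, exact 95% interval), of the 3948 weaker ones (centre) and of distal intergenic sequence (right) on each chromosome. Chromosomes I and III hold more of the strong regions than of the sequence (17.3% against 11.2%, and 18.5% against 11.1%), and IV and V hold less.

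Members lay a median of 2460.5 bp from the nearest protein-coding 5′ end, against 2701.5 bp for weaker distal regions, in intergenic intervals with a median length of 7070.5 bp against 7666 bp. More than 5000 bp from any such end were 86 members (15.9%, 12.9 to 19.2) and 20.1% of weaker regions. Within 500 bp of a 3′ end were 17.7% of members and 15.5% of weaker regions. The flanking genes were divergent at 33.0% of members and 30.5% of weaker regions, convergent at 12.7% of both, and in the same direction at 53.5% of members and 56.6% of weaker regions. The 542 members occupied 459 intervals, 65 of which held more than 1. As many as 5 regions stood between F54F12.1 and Y39E4B.6 on III, and 4 stood between F13D11.3 and hbl-1, the hunchback-like zinc finger gene that times larval development. Intervals with 4 also lay between C30E1.4 and F52G3.8 on X and between rho-1 and zip-7 on IV. Between an outermost protein-coding gene and the chromosome end were 4 members (0.738%), against 3 of the 3948 weaker regions (0.0760%). Of these members, 3 lay within a span of 3212 bp on X, before the first gene Y73B3A.1, and the other lay past pot-3 on III. These 3 members before Y73B3A.1 are thus close neighbours and not separate observations.

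Noncoding genes other than tRNA, snoRNA and snRNA genes held the summit of 49 members (9.04%, 6.76 to 11.8), against 8.23% of weaker regions. The regions are thus intergenic with respect to protein-coding genes only. Unclassified ncRNA genes held 33 members (6.09%, 4.23 to 8.44) and 1.75% of weaker regions, and pseudogenes held 9 (1.66%, 0.762 to 3.13) and 5.14% of weaker regions. The strongest at ncRNA genes were those at F36H1.17 and Y37A1B.335, already described, and at T22B2.9 and T22B2.12 (45.4 in replicate 1, 69.2 in replicate 2). Next was one at T06A4.7 (65.1 in replicate 1, 33.3 in replicate 2), 11795 bp from T06A4.1 and 15204 bp from the homeobox gene zfh-2. Another lay at F13D11.7 and F13D11.13 (51.7 in replicate 1, 38.6 in replicate 2), 6478 bp from F13D11.3 and 9742 bp from hbl-1. Long intergenic RNA genes held 6 members (1.11%) and 0.963% of weaker regions; these were led by linc-128 and linc-153 (42.6 in replicate 1, 50.7 in replicate 2), followed by linc-91, linc-129 and linc-146 at pooled signals from 47.3 to 50.2. Among pseudogenes T26C11.3 was followed by Y48A6C.2, Y17D7C.3, CE7X_3.2 and ZC513.7. No member lay in a piRNA gene, against 20 weaker regions, and none in an antisense RNA gene, against 3. MicroRNA genes held 2 members and 3 weaker regions: mir-52, and mir-53, where the signal was 50.01 in replicate 1 and 29.5 in replicate 2. Both belong with mir-51 to 1 family that acts broadly in the embryo; a further region 163 bp from mir-52 had 42.1 in replicate 1 and 45.5 in replicate 2.

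The genes on either side of the members numbered 892 of 19985 protein-coding genes (4.46%), and 21.4% of all genes flanked a weaker region. Of 12 AIY genes 2 flanked a member and 9 a weaker region. These were ttx-3 itself, with 2 members, the stronger 7557 bp away (28.7 in replicate 1, 22.7 in replicate 2), and kal-1, the anosmin gene (18.5 in replicate 1, 27.2 in replicate 2). Of 11 AIA and NSM genes only ins-1, an insulin-like gene, flanked a member (14.1 in replicate 1, 31.5 in replicate 2). Of 7 LIM homeobox genes 2 did, ttx-3 and lin-11, where replicate 2 had 34.1 and replicate 1 no summit. That summit lay 13092 bp from lin-11 and 1810 bp from csnk-1 on the other side. The strongest member beside each of these 4 genes ranked from 1337 to 2669 in the pooled list, and none of them was in the optimal list.

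Other regulatory gene lists gave small counts. Of 6 Hox genes only egl-5 flanked a member (18.3 in replicate 1, 22.3 in replicate 2). Of 63 homeobox genes named ceh 7 did (11.1%, 4.59 to 21.6), where 4.46% of all protein-coding genes did. Weaker regions, which are more numerous, were beside 41.3% of these ceh genes and 21.4% of all protein-coding genes. The 4 ceh genes with the strongest member were ceh-58, ceh-43, ceh-86 and ceh-62. Of 269 nuclear receptor genes 9 flanked a member (3.35%, 1.54 to 6.26), led by nhr-204, nhr-88, nhr-71 and nhr-25, and of 25 bHLH genes hlh-29 alone did. Of 140 neuropeptide and insulin-like genes 8 did (5.71%, 2.50 to 10.9), led by nlp-76, nlp-40, ins-36 and ins-33, of which nlp-76, nlp-40 and ins-36 had a summit in a single replicate list. Chemoreceptor genes were beside members in 14 of 1171 cases (1.20%, 0.655 to 2.00), below the 4.46% of all genes, led by srw-60, srr-4, srsx-9 and srt-62; 15.4% of them flanked a weaker region. Collagen genes flanked a member in 5 of 156 cases, led by col-3, col-185, col-83 and col-98. Ribosomal protein genes did in 3 of 76 cases (rpl-11.2, rpl-31 and rpl-21) and histone genes in 1 of 72 (his-24).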

How the data were processed

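The authors deposited, per the file descriptions, a list of 30000 peak and background regions for each replicate and for the replicates pooled, and a list of 700 regions thresholded by irreproducible discovery rate. Aligner, caller and threshold: not given in the sources used here. Signal, as the authors deposited it, is the caller's strength of a region against the shared control; the deposited −log10 of the q-value was read but ranks nothing here. Sequencing depth is unknown. Regions on ce11 were placed on WBcel235 with the Ensembl 115 annotation; 2758 of 2811 unnamed genes took RefSeq symbols. Replicate summits within 100 bp counted as shared. Weaker distal regions came from the 15000 of lowest pooled signal. Words were searched on both strands within 50 bp of summits. The genes named flank the 20 strongest regions or belong to the lists (the first 3 lists whole, up to 4 genes of each other), or are noncoding genes with a summit (up to 5 per class), or have the 3 largest or smallest replicate ratios. Genes named beside the MEX words, rho-1 and hbl-1 intervals, xol-1 and sid-3 were chosen after their values were seen. The members and lists were chosen with earlier results of these data known. No test was made, since there is 1 group; shares carry exact intervals at 95%. The counting code was tested on simulated data. Alternatives changed the list, the number taken, distances and windows. Python 3.11.15, numpy 2.4.6, pandas 2.3.3, scipy 1.17.1 and matplotlib 3.10.9 were used. The ce10 lists and the control were not used here.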

Additional observations from a re-analysis of the deposited data

How the results depend on the processing

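Of 60 alternative values 39 stayed within the interval of the reported value, or within 1.5 times it for the count of members, and 21 moved. With the 1500 strongest regions there were 207 members, with 41.6% median GC, 25.6% in the optimal list, 27.5% on X and 79.7% in both replicate lists. With the optimal list alone there were 53 members, with 45.5% GC, a median of 2938 bp to the nearest 5′ end, 100% in the optimal list by construction, 34.0% on X, 3.77% with TAATTA, 88.7% in both lists and 22.6% inside another noncoding gene. A promoter window from 2000 bp upstream gave a median distance of 3118 bp, and a window of 100 bp to each side gave TAATTA in 16.2%. Summits within 50 bp or 200 bp gave 45.4% or 89.1% in both lists and 10.9% or 21.5% recovered in replicate 2. When either replicate alone chose the members, 39.5% to 40.03% were in both lists. No paired analysis was possible because there is 1 group. The cause of these shifts was not tested. The absence of read counts limits what a missing summit shows, and 2 replicates allow no test between conditions.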
